A study of Mus musculus with 24 samples.

Results

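The effect of NeuroD2 on P19 cells was described across 18193 genes, from the 3 arrays of P19 cells transduced with a NeuroD2 lentivirus and the 3 arrays of untransduced P19 cells of the same batch. The 6 arrays were chosen by their titles, which place them all in batch 3, out of 24 arrays in 8 groups of 3. P19 is an established mouse embryonal carcinoma line whose cells can be turned into neurons or muscle. The transduced cells took up virus in medium with 8 µg/ml polybrene, received fresh medium after 24 hours and were harvested at 72 hours. Both groups share the same line and carry no stated mutation. The controls received no virus, so the effects of virus, polybrene and NeuroD2 cannot be told apart. The promoter of the transgene, the dose of virus and the share of cells transduced were not stated in the labels used here. Elsewhere in the series, MyoD was given to P19 cells in batch 1, and fibroblasts from Myod-/-/Myf5-/- mouse embryos (MEFs) carried the label NeuroD2 in batch 2. Each of those groups has untransduced controls of its own batch.

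NeuroD2 is a basic helix-loop-helix (bHLH) transcription factor of the neuronal lineage. Such factors pair with the broadly expressed E proteins and bind E boxes, the letters CANNTG in DNA, while Id proteins hold E proteins in pairs that do not bind DNA. In the developing nervous system neuronal bHLH factors switch on further transcription factors of neurons and also Notch ligands, which act on neighbouring cells to keep them as progenitors through the Hes and Hey repressors.

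Values are the deposited log2 intensities, and each gene is read from a single probe set, the brightest of its probe sets over all arrays. Differences are on the log2 scale, so 1 is a doubling. A gene is said to rise or fall when its limma adjusted p (Benjamini-Hochberg over 18193 genes) is under 0.05. Separate cultures are not stated for the replicates, so p-values measure the spread between these samples, which may be technical, and the number of arrays limits the precision. In RNA from bulk cells, a change in the number of cells that express a gene and a change in RNA per cell cannot be told apart.

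The 6 arrays had like distributions, with lower quartiles between 4.47 and 4.54, medians between 5.79 and 5.84 and upper quartiles between 8.29 and 8.39. Replicate 1 stood apart from the others in both groups. Untransduced replicate 1 differed at least 2-fold from replicates 2 and 3 in 650 and 656 genes, while replicates 2 and 3 differed so in 5. NeuroD2 replicate 1 differed at least 2-fold from replicates 2 and 3 in 175 and 233 genes, against 6 between replicates 2 and 3. A further array outside this comparison, P19 control replicate 2 of batch 1, had an upper quartile of 7.63 and widened the spread that all groups share in the fit. Results below are therefore also given with that array left out, or leaving out replicate 1 of both groups where this moves the number of called genes in a list by more than 1.5 times or ends the call of a gene.

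Limma called 928 genes higher with NeuroD2, which is 5.10% of the genes tested, and 589 lower, which is 3.24%. These shares are the background for the counts of the gene lists below. The rises were the larger changes. At least 2-fold changes numbered 481 higher (2.64%) and 113 lower (0.621%), at least 4-fold changes 146 and 7, and at least 8-fold changes 49 and 0. The median effect over all genes was -0.05. The groups did not overlap in 1441 of the called genes and overlapped in 76. Over all genes the groups did not overlap, with NeuroD2 higher, in 11.7%, and with NeuroD2 lower in 14.3%. Without P19 control replicate 2 of batch 1, 1992 genes were higher (10.9%) and 2034 lower (11.2%), including all 928 and all 589. Without replicate 1 of both groups, 814 were higher (4.47%) and 636 lower (3.50%), of which 728 and 375 were among those called with all arrays. Of the arrays left out singly, NeuroD2 replicate 2 gave the fewest falls, 330. With quantile normalization repeated, 1236 genes were higher and 1085 lower, and with estimated array weights 2638 and 3355.

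**Figure D1:**
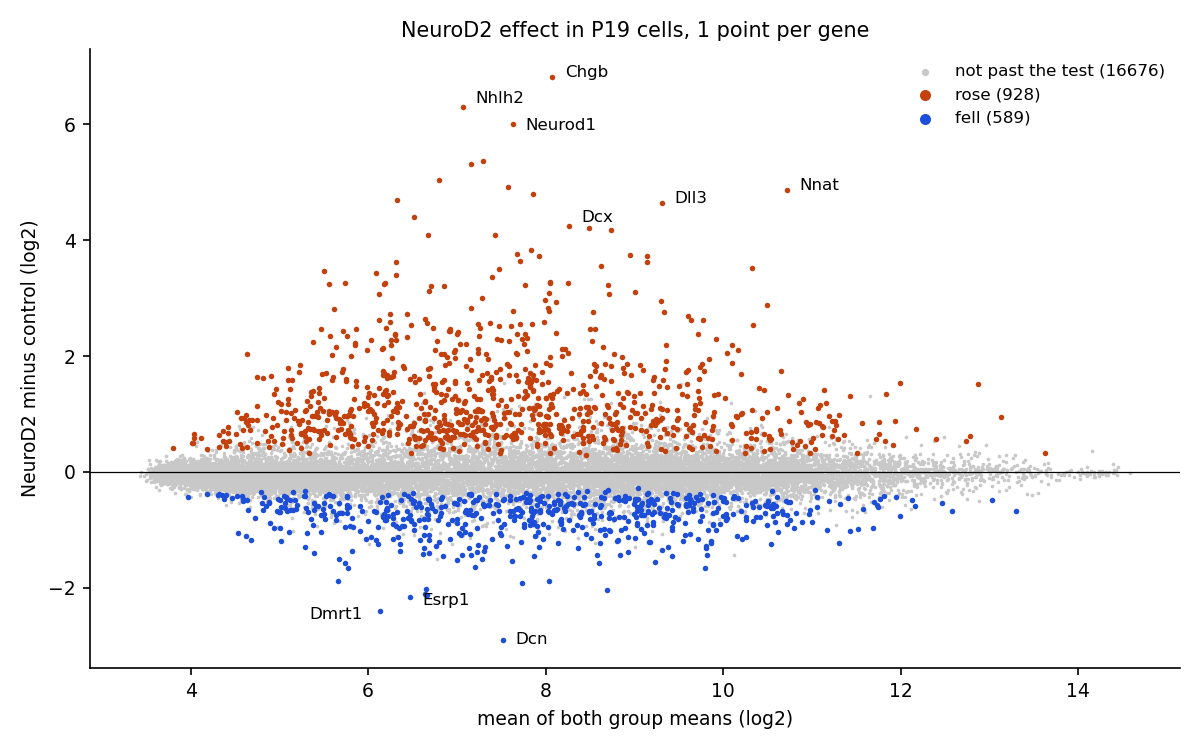
Difference between NeuroD2 and control group means (vertical, log2) against the mean of both group means (horizontal, log2), 1 point per gene over 18193 genes. The 928 genes that rose reach 6.81 (Chgb), whereas the 589 that fell reach -2.89 (Dcn).

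The transduced gene was read first. Neurod2 has 3 probe sets. The first read 6.13, 5.90 and 5.91 in the untransduced replicates 1 to 3 and 7.98, 7.20 and 7.87 in the NeuroD2 replicates. All NeuroD2 arrays lay above all controls there, and the difference was 1.70 (limma adjusted p = 1.85e-06 over 34945 probe sets). The brightest probe set, which stands for the gene elsewhere in this report, read 6.48, 6.51 and 6.18 against 6.85, 6.49 and 6.46, with overlapping groups and a difference of 0.21 ± 0.19 (SE, n = 3 per group; limma adjusted p = 0.709). The remaining probe set differed by 0.08 (adjusted p = 0.909). Which of these probe sets lie within the transduced sequence was not stated in the labels.

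The promoters of 5 of the 15 largest rises are shown first, because E boxes are the letters that NeuroD2 and its partners bind. Genes with larger rises than Dll3 and Nhlh1, such as Uncx at 5.04, are not shown, so the 5 do not stand for all rises. Each is the RefSeq window from 250 bases before to 50 bases after the start of transcription (GRCm38.p6), written 5′ to 3′ on the strand of the gene, with every E box in capitals. The windows are Neurod1, chr2:79456587-79456886, minus strand; Chgb, chr2:132781392-132781691, plus strand; Nhlh2, chr3:102009895-102010194, plus strand; Nhlh1, chr1:172057547-172057846, minus strand; and Dll3, chr7:28301736-28302035, minus strand.
Neurod1: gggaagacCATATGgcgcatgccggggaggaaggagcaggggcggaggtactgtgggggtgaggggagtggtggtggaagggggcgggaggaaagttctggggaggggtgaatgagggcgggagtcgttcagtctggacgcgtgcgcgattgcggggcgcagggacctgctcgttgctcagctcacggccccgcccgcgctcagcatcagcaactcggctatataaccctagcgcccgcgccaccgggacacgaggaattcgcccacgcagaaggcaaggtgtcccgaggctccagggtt
Chgb: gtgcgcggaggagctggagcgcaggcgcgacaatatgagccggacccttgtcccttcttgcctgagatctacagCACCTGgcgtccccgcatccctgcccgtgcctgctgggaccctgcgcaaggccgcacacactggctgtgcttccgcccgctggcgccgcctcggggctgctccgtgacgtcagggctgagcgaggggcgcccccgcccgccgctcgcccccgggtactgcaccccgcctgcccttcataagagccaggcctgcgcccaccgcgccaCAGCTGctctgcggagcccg
Nhlh2: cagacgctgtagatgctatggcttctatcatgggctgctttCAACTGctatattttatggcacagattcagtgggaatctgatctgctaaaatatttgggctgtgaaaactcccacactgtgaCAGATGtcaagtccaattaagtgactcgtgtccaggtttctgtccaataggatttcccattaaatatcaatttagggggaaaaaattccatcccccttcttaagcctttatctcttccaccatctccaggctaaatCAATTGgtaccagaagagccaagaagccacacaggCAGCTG
Nhlh1: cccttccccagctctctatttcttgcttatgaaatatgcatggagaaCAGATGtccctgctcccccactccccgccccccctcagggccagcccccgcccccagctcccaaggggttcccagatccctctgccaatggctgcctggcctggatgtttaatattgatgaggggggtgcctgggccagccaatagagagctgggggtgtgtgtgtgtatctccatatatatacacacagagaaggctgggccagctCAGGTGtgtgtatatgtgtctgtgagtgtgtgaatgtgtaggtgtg
Dll3: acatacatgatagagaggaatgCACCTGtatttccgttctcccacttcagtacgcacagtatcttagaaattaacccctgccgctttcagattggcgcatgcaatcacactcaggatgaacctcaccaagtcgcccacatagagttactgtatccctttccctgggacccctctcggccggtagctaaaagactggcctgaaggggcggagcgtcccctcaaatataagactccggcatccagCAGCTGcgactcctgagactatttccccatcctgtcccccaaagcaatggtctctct

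Each of the 5 windows holds at least 1 E box, as do 67.5% of the promoters of all genes tested. Neurod1 has a single one, CATATG at -242 from the start site. Chgb has CACCTG at -176 and CAGCTG at 30, and Dll3 has CACCTG at -228 and CAGCTG at -7. Nhlh2 has 4, among them CAGATG at -127 and CAGCTG at 44, and Nhlh1 has CAGATG at -203 and CAGGTG at 4. A match is a description of the letters and not a binding site.

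E boxes of any kind (CANNTG) were present in 65.1% of 981 promoters of genes that rose, in 70.8% of 630 promoters of genes that fell and in 67.5% of 18109 promoters of all genes tested. RefSeq windows were matched by symbol for 705 of the 928 and 457 of the 589 genes. Of the single E boxes, each counted on both strands and so including its reverse complement, CAGCTG was in 20.6% of the promoters of genes that rose (95% Wilson interval 18.2 to 23.2), in 18.7% of those of genes that fell and in 16.4% of all. CAGATG was in 14.2%, 14.1% and 13.4%. CAGGTG was in 18.5% of promoters of genes that rose, 27.0% of genes that fell (23.7 to 30.6) and 20.0% of all. CATATG was in 2.04%, 1.9% and 2.32%. These shares are descriptions without a test, and promoters of a gene with several starts can overlap.

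The 4 marker genes of the neuronal label rose in every NeuroD2 array above every control. Neurod1, a bHLH factor of differentiating neurons, read 4.49, 4.97 and 4.43 in the controls and 10.33, 10.76 and 10.81 with NeuroD2. The groups lay far apart, with a difference of 6.0 ± 0.14 (SE, n = 3 per group; limma adjusted p = 7.83e-17), or 64.2-fold. Nhlh2, a bHLH factor of postmitotic neurons and neuroendocrine cells, read 3.97, 3.67 and 4.12 against 9.84, 10.37 and 10.43. It rose by 6.29 ± 0.19 (adjusted p = 1.78e-15), or 78.4-fold. Chgb, a granin stored in dense-core secretory granules, read 4.65, 4.92 and 4.45 against 10.86, 11.79 and 11.79. Its rise of 6.81 ± 0.21 (adjusted p = 3.28e-15), 112-fold, was the largest of all genes by this measure. Dcx, a microtubule-binding protein of migrating young neurons, read 7.73, 5.32 and 5.37 against 9.89, 10.72 and 10.56. Here untransduced replicate 1 was more than 2 log2 units above the other controls and still below every NeuroD2 array (4.25 ± 0.45, adjusted p = 1.12e-06). The SD of the Dcx controls alone was 1.38, so this SE, taken from the spread of all groups, overstates the precision. These 4 genes were given as markers with earlier results of these data known, so their rise checks the label and is not independent evidence.

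**Figure D2:**
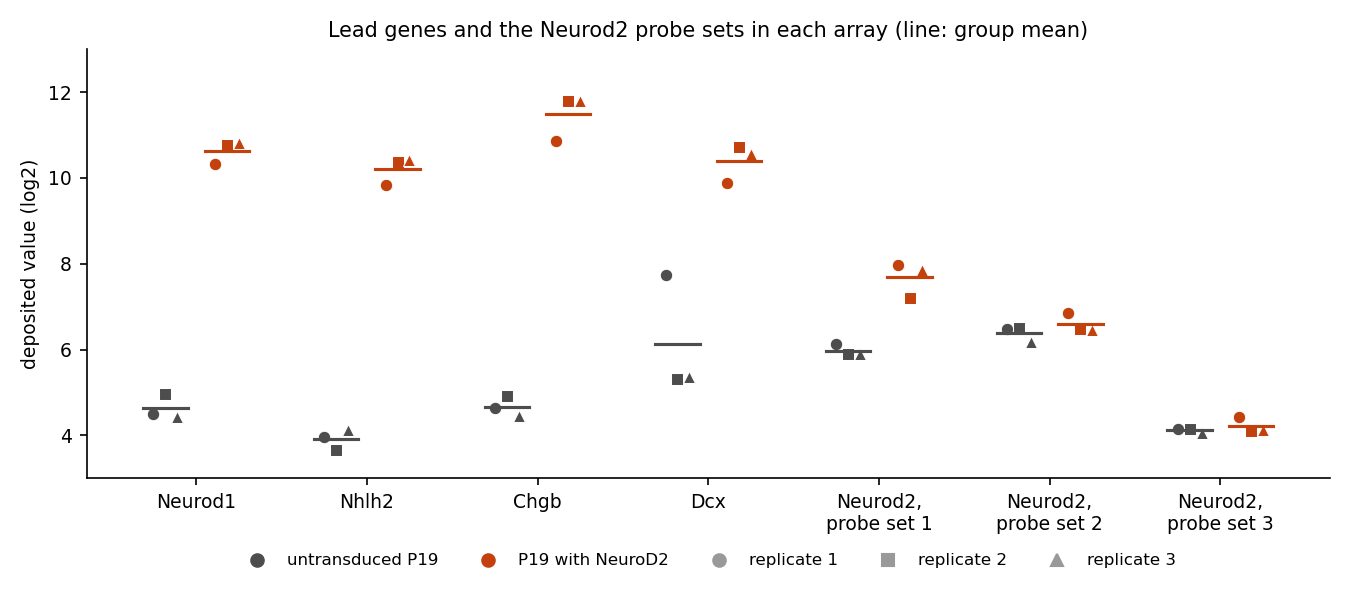
Deposited log2 values of Neurod1, Nhlh2, Chgb, Dcx and the 3 Neurod2 probe sets in each of the 6 arrays, with group means as lines and replicates 1 to 3 as circle, square and triangle. The groups are apart for the first 4 genes and for 1 Neurod2 probe set; Dcx in untransduced replicate 1 (7.73) lies above the other controls.

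Of 17 bHLH factors of the proneural and neuronal family, 6 rose and 0 fell, with a median of 0.29. Beside Neurod1 and Nhlh2 these were Nhlh1 at 4.41, Neurod4 at 3.24, and the progenitor factors Olig2 and Olig1 at 3.47 and 1.34. Nhlh1, a close relative of Nhlh2, read 4.28, 4.34 and 4.31 in the controls and 7.92, 9.03 and 9.19 with NeuroD2, so NeuroD2 replicate 1 was the lowest of its group (SE 0.22, limma adjusted p = 9.72e-12). Olig2, a factor of motor neuron and oligodendrocyte progenitors, read 3.82, 3.67 and 3.82 against 6.38, 7.43 and 7.91, again with replicate 1 the lowest. The neurogenins, which act before the NeuroD factors in development, did not pass on their brightest probe sets. There Neurog1 read 5.89, 6.03 and 5.77 against 6.11, 6.38 and 6.07, a difference of 0.29 between groups that did not overlap (adjusted p = 0.294), and Neurog2 differed by 0.01 (adjusted p = 0.995). The probe sets of Neurog1 disagreed, since its other one read 3.88, 4.10 and 3.83 in the controls and 6.02, 5.94 and 6.66 with NeuroD2 and rose by 2.27 (limma adjusted p = 4.04e-08 over 34945 probe sets). Neurod6, a cortical member of the family, differed by -0.05 (adjusted p = 0.9). Without P19 control replicate 2 of batch 1, 7 rose and 1 fell.

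Other transcription factors of neurons rose in number. Of 58 on the list, 23 rose and 0 fell, with a median of 0.46. The largest were Onecut2, which read 4.46, 4.49 and 4.87 in the controls and 9.34, 10.31 and 10.28 with NeuroD2 (5.37 ± 0.26, limma adjusted p = 7.57e-12). Ebf2 and Ebf3, factors that follow proneural genes in differentiating neurons, rose by 5.31 and 4.91, and their relative Ebf1 by 2.97. Insm1, a zinc-finger factor of neuronal progenitors and endocrine cells, read 6.62, 7.53 and 7.84 against 10.63, 10.99 and 11.25 and rose by 3.63. LIM-homeodomain factors that specify neuron classes were among them, with Lhx1 at 2.63, Isl1 at 2.47, Lhx2 at 2.47 and Lhx5 at 2.35. Pou4f1, a factor of sensory neurons, rose by 1.64. Uncx, a homeobox factor outside the list, read 4.18, 4.16 and 4.50 against 8.98, 9.44 and 9.55 and was among the 15 largest rises (5.04). Myt1, a zinc-finger partner of proneural factors, rose by 0.82, although the call ended when only the 6 arrays were fitted (adjusted p = 0.0761). Rest, the repressor of neuronal genes in other cells, read 10.56, 10.75 and 10.72 in the controls and 10.05, 9.74 and 9.76 with NeuroD2. Every NeuroD2 array lay below every control, and Rest fell by 0.82 (adjusted p = 0.00157).

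The partners and inhibitors of bHLH factors moved in part. Id1, Id2 and Id4, which keep E proteins from DNA, rose by 1.94, 2.10 and 2.06 (limma adjusted p = 5.96e-10, 2.33e-05 and 2.38e-05). Id2 read 8.53, 9.58 and 9.24 in the controls and 10.97, 11.31 and 11.36 with NeuroD2, with no overlap. Id3 differed by 0.50 (adjusted p = 0.0984). The E proteins Tcf3, Tcf4 and Tcf12 differed by 0.29, 0.59 and 0.23 (adjusted p = 0.191, 0.0964 and 0.66). Together 3 of these 7 rose, and all 7 did without P19 control replicate 2 of batch 1.

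Of 24 genes of the Notch pathway, 9 rose and 0 fell, with a median of 0.26. Dll3, a Delta relative that acts within the cell that makes it, read 7.0, 7.05 and 6.94 in the controls and 11.27, 11.93 and 11.70 with NeuroD2. It rose by 4.64 ± 0.16 (limma adjusted p = 2.1e-14), or 24.8-fold. Dll1 and Dll4, ligands of Notch receptors, rose by 2.26 and 1.80, and Mfng and Lfng, sugar transferases that modify the receptors, by 3.10 and 1.57. Notch1 itself read 7.39, 8.73 and 8.67 against 10.04, 10.64 and 10.67, with replicate 1 the lowest in both groups, and rose by 2.19. The other 15 did not pass. Of 9 Hes and Hey repressors, 3 rose and 0 fell. They were Hes5 and Hey1, targets of Notch signalling, at 1.47 and 1.26, and Hes6, a neuronal relative that opposes other Hes proteins, at 1.36. Hes5 read 5.30, 5.21 and 5.26 against 6.72, 6.77 and 6.69, so the arrays of each group were within 0.1 of each other.

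The cytoskeleton and RNA-binding proteins of neurons showed a broad rise. Of 46 genes, 32 rose and 0 fell, and the median was 1.11. Map2, a microtubule-binding protein of dendrites, read 5.85, 7.09 and 7.03 in the controls and 10.36, 11.08 and 11.06 with NeuroD2 (4.18 ± 0.33, limma adjusted p = 1.33e-08). Both replicates numbered 1 were the lowest of their group, and the groups did not overlap. Stmn4, a tubulin-binding protein of neurons, rose by 3.83, Tubb3, the neuronal beta tubulin, by 2.54, and Mapt, the axonal protein tau, by 1.61. Elavl3 and Elavl4, RNA-binding proteins of young and mature neurons, rose by 3.55 and 2.78. The intermediate filament genes Ina and Nefm rose by 2.19 and 1.81, and Gap43, a growth cone protein, by 2.62, from 6.32 in untransduced replicate 1 and 9.53 and 9.54 in the other controls to between 10.95 and 11.17. Stmn2, a relative of Stmn4, read 10.08, 11.02 and 11.04 in the controls and 11.47, 11.79 and 11.76 with NeuroD2. Its rise of 0.96 (adjusted p = 0.01) lost the call without replicate 1 of the controls, with replicate 1 of both groups left out, without NeuroD2 replicate 2 and with only the 6 arrays fitted, where the highest adjusted p was 0.078. In untransduced replicate 1, 7 of the 46 genes were at least 2-fold below the other controls and 1 was above; the part of that array in the list's change was not tested, and without both replicates numbered 1 the counts were 30 and 1.

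Granins and other proteins of dense-core granules rose in 12 of 16 cases, and 0 fell, with a median of 2.03. After Chgb, the largest were the granins Scg2 and Scg3 at 4.08 and 3.76, and the Notch-binding surface protein Dner, which was placed on this list, at 3.73. Scg2 read 4.55, 4.78 and 4.58 in the controls and 8.50, 8.88 and 8.78 with NeuroD2. Chga, the partner of Chgb in granules, rose by 1.35. Cadps, which primes granules for release, rose by 2.43, and the prohormone Vgf by 1.94. Of the enzymes and helpers of prohormone processing, Scg5 rose by 2.12 and Cpe, a carboxypeptidase, by 0.73.

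Of 40 genes of synaptic vesicles and release, 18 rose and 0 fell, with a median of 0.47. Syp, the vesicle protein synaptophysin, read 5.85, 5.93 and 5.87 in the controls and 9.18, 9.73 and 9.67 with NeuroD2 (3.64 ± 0.13, limma adjusted p = 3.09e-14), or 12.5-fold. Snap25, a membrane fusion protein, and Pclo, a scaffold of the release site, each rose by 3.20. Syt13, Syt4 and Syt11, members of the synaptotagmin family, rose by 2.60, 1.98 and 1.83, and Syt1, the fast calcium sensor, by 1.55.

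Genes that make or carry transmitters moved in fewer cases. Of 20, 3 rose and 0 fell, and the median was -0.10. Slc17a6, the vesicular transporter of glutamate known as VGLUT2, read 4.40, 4.15 and 4.57 in the controls and 7.35, 8.04 and 8.04 with NeuroD2 (3.44 ± 0.27, limma adjusted p = 1.08e-08), or 10.9-fold. Slc17a7, another glutamate transporter, rose by 1.21, and Slc18a3, the vesicular transporter of acetylcholine, by 0.86. Gad1, the enzyme that makes GABA, read 4.70, 4.96 and 4.64 against 4.61, 4.76 and 4.61, with a difference of -0.11 (adjusted p = 0.948).

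Receptor subunits rose in 5 of 38 cases and fell in 1, with a median of 0.00. Of the 5, 4 were neuronal nicotinic acetylcholine receptor subunits, with Chrnb4 at 3.07, Chrna3 at 1.17, Chrna5 at 1.15 and Chrna4 at 1.07. Chrnb4 read 4.42, 4.62 and 4.71 in the controls and 6.99, 8.12 and 7.84 with NeuroD2. Chrna5 overlapped between the groups, since untransduced replicate 1 read 6.58 and NeuroD2 replicate 1 read 6.06, and its call ended under 7 alternatives. The other rise was Gabbr1, a metabotropic GABA receptor subunit, at 1.62, and Gabrg1, a GABA-gated channel subunit, fell by 1.05. Of 34 voltage-gated channel genes, 10 rose and 0 fell, with a median of 0.13. They were led by the potassium channel gene Kcnd3, which read 4.63, 4.60 and 4.60 against 7.83, 8.10 and 8.11 (3.40 ± 0.09, limma adjusted p = 5.48e-16). Cacna2d1, a calcium channel subunit, and Scn3a, a sodium channel of embryonic neurons, rose by 2.69 and 2.57.

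Axon guidance and adhesion genes rose in 22 of 63 cases and fell in 1 (Efna1, -0.43), with a median of 0.39. Astn1, which guides migrating neurons along glia, read 5.72, 6.02 and 6.15 in the controls and 8.05, 8.71 and 8.77 with NeuroD2 (2.55 ± 0.17, limma adjusted p = 8.22e-10). Nrp1, a receptor for semaphorins, rose by 2.11, Cdk5r1, the neuronal activator of the kinase CDK5, by 2.04, and Robo1, a receptor for Slit proteins, by 1.91. The call of Robo1 ended without untransduced replicate 1 and without replicate 1 of both groups. Of the 63 genes, 8 were at least 2-fold lower in untransduced replicate 1 than in the mean of the other controls. Without P19 control replicate 2 of batch 1, 32 rose and 5 fell, and without both replicates numbered 1 the counts were 19 and 2.

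Genes of neural progenitors and their regional patterning rose in 13 of 43 cases, and En1, a homeobox factor of the midbrain, fell (-0.76). Pax6, a factor of progenitors in forebrain, eye and spinal cord, read 4.41, 4.50 and 4.76 in the controls and 7.23, 8.13 and 8.05 with NeuroD2 (3.25 ± 0.19, limma adjusted p = 2e-10), or 9.49-fold. Fabp7, a fatty acid carrier of radial glia, rose by 2.82, Pax3, a factor of the dorsal neural tube, by 2.28, and Nkx6-1, a factor of the ventral neural tube, by 1.96. Sox1 and Sox2, general factors of neural progenitors, did not pass. Sox1 differed by -0.27 (adjusted p = 0.709), and Sox2 read 11.25, 12.45 and 12.21 against 11.81, 11.81 and 11.84, a difference of -0.15 (adjusted p = 0.92). The list had a median of 0.27, which was 0.04 without both replicates numbered 1, with 12 genes higher and 1 lower.

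Of the 15 largest rises, a few belong to none of these lists. Nnat, an imprinted membrane protein of neuroendocrine and brain cells, read 6.69, 9.05 and 9.11 in the controls and 13.23, 13.11 and 13.09 with NeuroD2. Untransduced replicate 1 was more than 2 log2 units below the other controls, and the rise was 4.86 ± 0.40 (limma adjusted p = 2.89e-08). The SD of the Nnat controls alone was 1.38, so this SE overstates the precision. Rgs4, which shortens G protein signals, rose by 4.80, and Ppp1r17, a phosphatase inhibitor known from Purkinje cells, by 4.69. Crabp1, a retinoic acid-binding protein, read 6.57, 6.27 and 6.32 against 10.42, 10.78 and 10.58 and rose by 4.20 ± 0.11 (adjusted p = 1.52e-16).

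**Figure D3:**
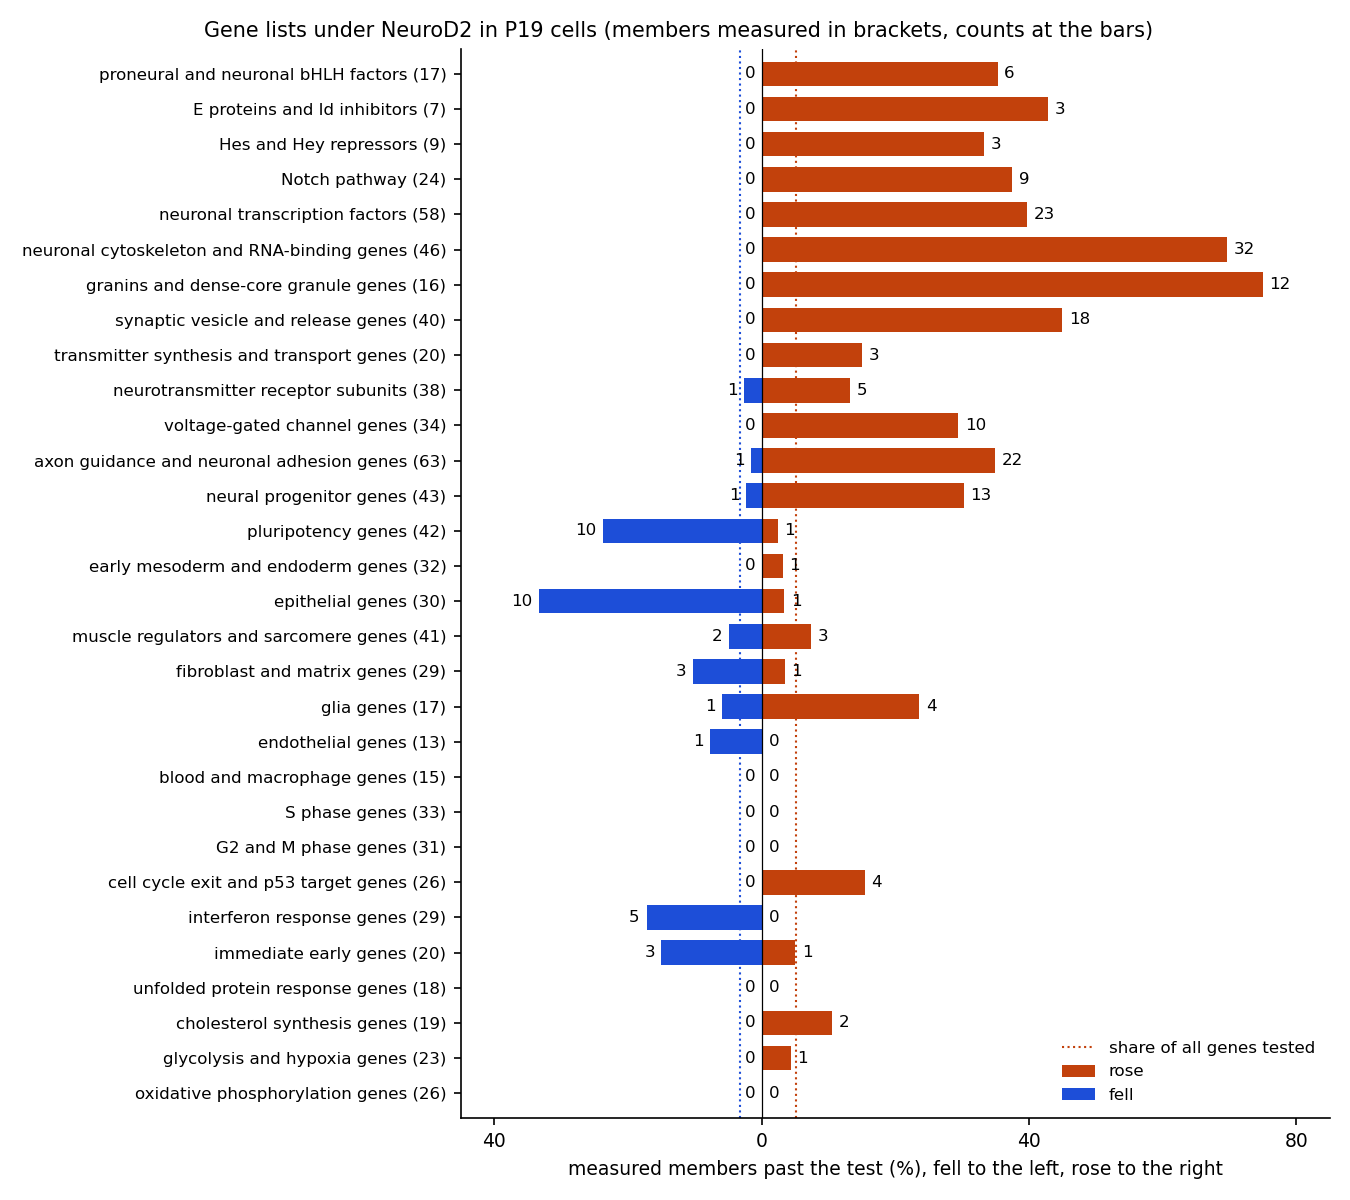
Share of the measured members of each gene list (percent, horizontal) that rose (to the right) or fell (to the left) with NeuroD2, with the counts at the bars and the number measured in brackets. Dotted lines mark the shares over all genes, 5.10% and 3.24%; the dense-core granule and cytoskeleton lists reach furthest to the right (12 of 16 and 32 of 46), the epithelial list furthest to the left (10 of 30).

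Of 42 pluripotency genes, 10 fell and 1 rose, with a median of -0.27. Pou5f1, the factor OCT4, read 13.81, 13.69 and 13.72 in the controls and 13.32, 13.35 and 13.44 with NeuroD2. The groups did not overlap, but the difference of -0.37 ± 0.16 did not pass (limma adjusted p = 0.209). This SE, taken from the spread of all groups, was larger than the SD of the Pou5f1 controls (0.06) and of its NeuroD2 arrays (0.06). Pou5f1 was called under 1 of 18 alternatives, and its difference lay between -0.41 and -0.31 over them. A small fall of Pou5f1 is therefore left undecided. Nanog read 10.16, 9.48 and 9.67 against 10.65, 9.68 and 9.56, a difference of 0.19 (adjusted p = 0.917), with overlapping groups. Zfp42, a zinc-finger marker of stem cells, differed by -0.31 (adjusted p = 0.412). It was dim, with means of 4.23 in the controls and 3.92 with NeuroD2, below the lower quartiles of the arrays. Lin28a, an RNA-binding protein of stem cells, differed by -0.32 (adjusted p = 0.325) and was called under 1 of 18 alternatives. Another probe set of Lin28a read 10.48, 10.16 and 10.07 against 9.08, 9.52 and 9.71 and fell by 0.80 (limma adjusted p = 0.0388 over 34945 probe sets). Those on the list that fell included Dnmt3l, a cofactor of DNA methylation in germ cells, which read 7.34, 8.01 and 7.83 against 5.33, 5.71 and 5.75 (-2.13 ± 0.21, adjusted p = 3.01e-07). Fbxo15, a target of the OCT4 and SOX2 pair, fell by 1.88, Nr0b1, a nuclear receptor of stem cells, fell by 1.43, and Klf5, a stem cell factor, fell by 1.38. Dppa2, a chromatin protein of early embryos, differed by -1.44 (adjusted p = 0.038), and its call ended under 7 alternatives, among them leaving out untransduced replicate 1, which read 9.09 against 7.33 and 7.24 in the other controls. Its NeuroD2 arrays read 7.05, 5.70 and 6.58. Untransduced P19 cells of batch 1 read 6.88, 5.35 and 7.11, where replicate 2 is the array that stood apart. The gene that rose was Tbx3 at 0.82.

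Epithelial genes fell in 10 of 30 cases, with 1 rise and a median of -0.35. Esrp1, a splicing factor of epithelial cells, read 6.61, 8.09 and 7.96 in the controls and 5.26, 5.33 and 5.60 with NeuroD2 (-2.16 ± 0.30, limma adjusted p = 3.22e-05). All NeuroD2 arrays lay below all controls, of which replicate 1 was the lowest. Cldn6, a tight junction protein of embryonic epithelia, fell by 1.91, and Krt19, a keratin, fell by 1.24 although its groups overlapped and its call ended under 5 alternatives. Epcam, an adhesion protein of epithelial and stem cells that is also on the pluripotency list, fell by 1.04. Its call ended under 2 alternatives (highest limma adjusted p = 0.147). The other probe set of Epcam differed by -0.33 (limma adjusted p = 0.542 over 34945 probe sets). Cdh1, E-cadherin, read 8.89, 10.18 and 10.26 against 9.21, 9.32 and 9.52, with overlapping groups (-0.43, adjusted p = 0.813). Krt8, a keratin, read 7.67, 9.51 and 9.26 against 9.57, 8.38 and 8.19 (-0.10, adjusted p = 0.968), and its difference lay between -1.10 and 0.40 over the alternatives. In untransduced replicate 1, 5 of the 30 genes were at least 2-fold below the other controls, and without both replicates numbered 1 the counts were 10 lower and 0 higher.

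The largest fall of all was that of Dcn, a small proteoglycan of connective tissue. It read 9.54, 8.59 and 8.78 in the controls and 6.80, 5.67 and 5.76 with NeuroD2, a difference of -2.89 ± 0.22 (limma adjusted p = 1.04e-08), 7.44-fold lower. Dmrt1, a factor of germ cells and testis, read 8.53, 6.63 and 6.84 against 4.69, 4.94 and 5.19 and fell by 2.39. Untransduced P19 cells of batch 1 read 4.88, 4.76 and 5.26 for Dmrt1, near the NeuroD2 arrays and below the controls of batch 3. The part of the batch 3 controls in this fall was not tested. Tfap2c, a factor of germ cells and trophoblast, fell by 1.45. Folr1, a folate receptor, read 9.70, 9.93 and 9.52 against 8.70, 7.20 and 7.13 and fell by 2.04, with NeuroD2 replicate 1 between the controls and the other NeuroD2 arrays. Fabp3, a fatty acid carrier, and Grb10, an imprinted adaptor of growth factor receptors, fell by 1.66 and 1.55. Mpzl2, an adhesion protein, had the least secure call of these falls (-1.45, adjusted p = 0.0407) and lost it under 10 alternatives. Cysltr1 and Hrh1, receptors for leukotrienes and histamine, fell by 2.10 and 1.52.

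**Figure D4:**
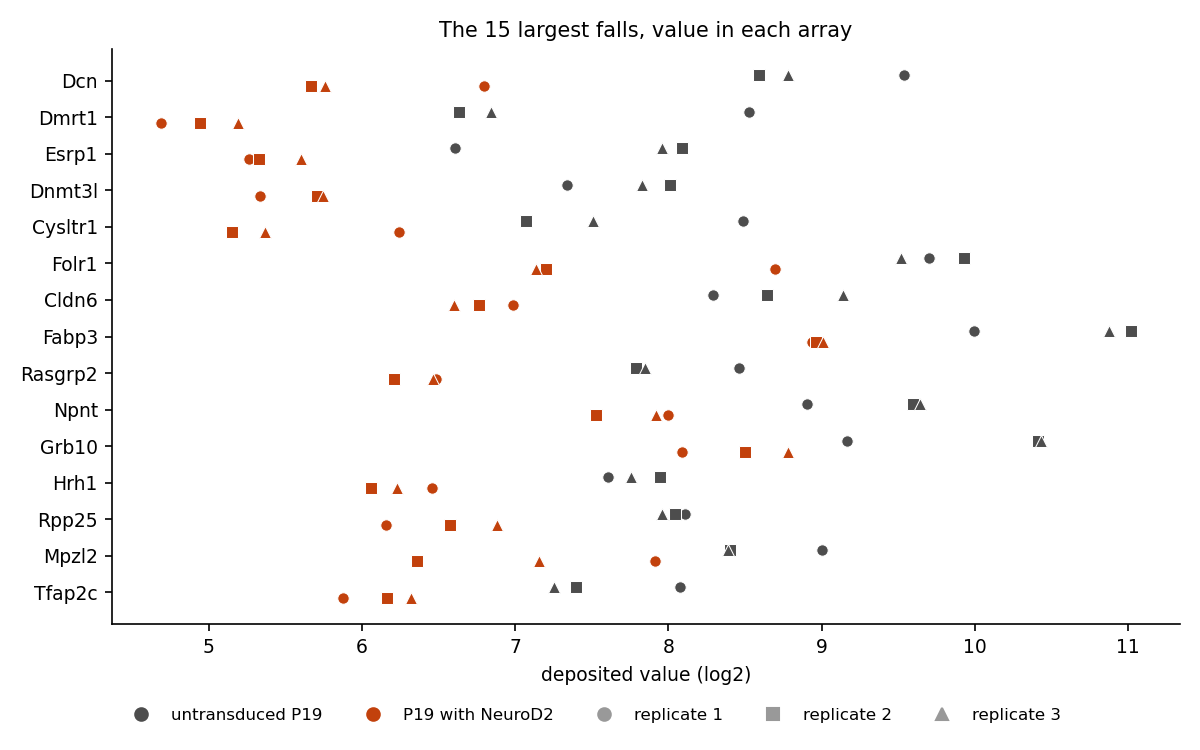
Deposited log2 value (horizontal) in each of the 6 arrays for the 15 largest falls, controls in grey and NeuroD2 in orange, replicates 1 to 3 as circle, square and triangle. The groups are apart in all 15 by the rule that chose them; in Dmrt1, Cysltr1 and Dcn untransduced replicate 1 is the highest array, in Esrp1, Grb10 and Fabp3 it is the lowest control.

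The cell cycle lists did not follow the neuronal ones. Of 33 S phase genes and 31 genes of G2 and M phase, limma called 0 in either direction, with medians of -0.08 and -0.02. At an unadjusted p under 0.05 there were 2 and 0, against 17.5% of all genes, and 1 S phase gene fell without P19 control replicate 2 of batch 1. Mki67, a protein of dividing cells, read 10.62, 10.56 and 10.77 in the controls and 11.09, 10.80 and 10.78 with NeuroD2, a difference of 0.24 that did not pass (limma adjusted p = 0.645). Of 26 genes of cell cycle exit and p53 targets, 4 rose and 0 fell, namely Btg2 at 1.64 and Gadd45g at 1.53, both growth arrest genes, the cyclin Ccnd2 at 0.86 and the kinase inhibitor Cdkn1a at 0.57. Ccnd2 is known to promote entry into the cycle. There were 11 rises and 1 fall with P19 control replicate 2 of batch 1 left out. Leaving out both replicates numbered 1 gave 2 rises, where Cdkn1a and Ccnd2 were no longer called. The inhibitors Cdkn1b and Cdkn1c differed by 0.13 and 0.42 (limma adjusted p = 0.943 and 0.102).

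Lists of other cell types were read as a check on what else the cultures held. Over all genes 5.10% rose and 3.24% fell, or 10.9% and 11.2% without P19 control replicate 2 of batch 1. Leaving out both replicates numbered 1, the shares were 4.47% and 3.50%. Muscle genes rose in 3 of 41 cases and fell in 2 (6 without P19 control replicate 2 of batch 1, 4 without both replicates numbered 1), and Myod1 and Myog differed by -0.19 and -0.02 (limma adjusted p = 0.538 and 0.984). Those that rose were Eya1 at 1.20, whose call ended under 7 alternatives, Myh3, an embryonic myosin, at 0.96, and Tnnc1, a troponin of heart and slow muscle, at 0.66. Of 29 fibroblast and matrix genes, 1 rose (Pdgfrb, 1.04) and 3 fell (Dcn, Thy1 at -1.16 and Aspn at -0.43). The calls of Pdgfrb and Aspn each ended under 9 alternatives. Aspn was dim, with means of 4.19 in the controls and 3.76 with NeuroD2, below the lower quartiles of the arrays. Its other probe set differed by -0.07 (limma adjusted p = 0.942 over 34945 probe sets). Without that array of batch 1, 3 rose and 8 fell, and without both replicates numbered 1 the counts were 1 and 9. The log2 of the summed intensities of 7 fibroblast markers, in which the brightest weigh most, was 10.12 to 10.65 in the controls and 10.02 to 10.35 with NeuroD2. Of the 29 genes, 9 were at least 2-fold lower in untransduced replicate 1 than in the other controls. Glia genes rose in 4 of 17 cases, of which Olig2 and Olig1 are also neuronal progenitor factors, and Mbp, a myelin protein, rose by 1.17. Slc1a2, a glutamate transporter, rose by 0.64 on its brightest probe set, where the call ended without NeuroD2 replicate 2 and without both replicates numbered 1, while 2 of its other probe sets rose by 2.87 and 1.81 (limma adjusted p = 4.19e-13 and 3.75e-09 over 34945 probe sets). Slc1a3, its relative, fell by 0.58, and without both replicates numbered 1 the counts were 3 higher and 0 lower. Gfap, the filament of astrocytes, read 5.97, 5.18 and 5.46 against 5.53, 5.28 and 4.95 (-0.28, adjusted p = 0.391). Of 13 endothelial genes, 1 fell (Tek, -1.40), and Tek overlapped between the groups and lost the call under 8 alternatives, with a highest adjusted p of 0.355 by limma. None of 15 blood and macrophage genes was called by limma, with 1 at an unadjusted p under 0.05. The part of such cells in the results was not tested.

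Of 32 genes of early mesoderm and endoderm, only Lhx1 rose, which is also on the list of neuronal factors, and 0 fell (3 rose without the batch 1 array that stood apart, and 2 fell without both replicates numbered 1). Eomes, a T-box factor, differed by 0.07 and Gata6, an endoderm factor, by -0.32 (limma adjusted p = 0.967 and 0.397).

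Interferon response genes fell in 5 of 29 cases and rose in none, with a median of -0.22. Bst2, an antiviral membrane protein, read 9.98, 9.94 and 10.04 in the controls and 8.52, 8.55 and 8.87 with NeuroD2 (-1.34 ± 0.13, limma adjusted p = 2.15e-07). Gbp2, a guanylate-binding protein, Oasl2, a relative of the antiviral oligoadenylate synthetases, and Irf1, a transcription factor, fell by 0.80, 0.67 and 0.66. The calls of Gbp2 and Irf1 each ended under 2 alternatives (highest limma adjusted p = 0.073 and 0.0992). Gbp2 and Oasl2 were dim, with NeuroD2 means of 4.32 and 4.64, near the lower quartile of the arrays. These arrays had received lentivirus and the controls had not. Of 20 immediate early genes, 3 fell and 1 rose. Fos read 8.83, 8.01 and 7.76 against 7.21, 6.61 and 6.95 and fell by 1.28, Arc fell by 0.83 and Egr2 fell by 0.73, while Jun, a partner of Fos, rose by 0.83 (adjusted p = 0.0145, 0.0057, 0.0397 and 0.0387). The calls of Egr2 and Jun ended under 10 and 9 alternatives, and that of Fos under 4. Without P19 control replicate 2 of batch 1, 2 of the 20 rose and 6 fell, and without both replicates numbered 1 the counts were 0 and 4.

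Of 18 genes of the unfolded protein response, limma called 0, with a median of -0.43. At an unadjusted p under 0.05, 7 of the 18 were lower, against 1583 of all 18193 genes. NeuroD2 replicate 1 stood apart here in Trib3, a stress-induced pseudokinase, which read 10.88, 10.78 and 10.85 in the controls and 7.50, 10.21 and 10.50 with NeuroD2. Without both replicates numbered 1, 1 rose and 1 fell and the median was -0.19, and without P19 control replicate 2 of batch 1, 7 fell. Cholesterol synthesis genes rose in 2 of 19 cases (Tm7sf2 and Hsd17b7, at 0.73 and 0.56) and glycolysis and hypoxia genes in 1 of 23 (Car9, a carbonic anhydrase, 0.90). Without P19 control replicate 2 of batch 1, 5 and 3 rose and 2 and 3 fell. The shares over all genes were 5.10% higher and 3.24% lower, or 10.9% and 11.2% without that array. Of 26 genes of oxidative phosphorylation, 0 were called by limma, and 0 had an unadjusted p under 0.05.

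The rises were set beside the effect of MyoD in P19 cells, the muscle bHLH factor, taken against its own controls in batch 1, where 2.03% of all genes were called higher and 0.676% lower. Neurod1, Nhlh2, Chgb and Dcx differed by 0.04, 0.21, 0.04 and -0.13 with MyoD, and the NeuroD2 effect was above the MyoD effect for each (limma adjusted p of the difference = 3.94e-14, 1.93e-12, 2.03e-12 and 0.000122). These 4 markers were given with earlier results known, which fixes much of that direction, so the tests are not independent evidence. Over all genes tested, the NeuroD2 effect was called above the MyoD effect in 2.93% and below it in 2.60%. Of the 481 genes at least 2-fold higher with NeuroD2, the NeuroD2 effect was called above the MyoD effect in 314 and below it in 1. The 481 were chosen by the same NeuroD2 values, which fixes much of that direction, so these counts are a description and nothing is read from them. Genes at least 2-fold higher under both factors numbered 42, which is 8.73% of the 481 and 23.2% of the 181 of MyoD (0.995% of all genes). Dll1 rose by 2.26 with NeuroD2 and 1.84 with MyoD, with a difference of 0.42 (adjusted p = 0.324). Hes6 rose by 1.36 and 1.47, Hey1 by 1.26 and 1.11, and Cdk5r1 by 2.04 and 2.14, and none of these 3 differences passed (adjusted p = 0.661, 0.728 and 0.838). Insm1 rose under both, by 3.63 and 1.21, and its difference of 2.42 passed (adjusted p = 5.97e-05). The batches differ between the factors, and P19 control replicate 2 of batch 1 belongs to the MyoD controls. Without it, the first count was 427 of the 481.

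Under the same label in MEFs, 6.41% of all genes were called higher and 5.94% lower than in untransduced MEFs. In the arrays of MEFs labelled NeuroD2 none of the 3 Neurod2 probe sets rose, and their harvest time is counted in the labels from a change of medium that is described only for MEFs with MyoD. Of the 481 genes, 68 were at least 2-fold higher there as well, which is 14.1% of the 481 and 14.7% of the 463 of MEFs (2.54% of all genes). Over all genes the P19 effect was called above the MEF effect in 5.63% and below it in 4.53%. Among the 481 the counts were 332 and 12, which the choice of these genes by their P19 values fixes in large part, so they too are a description. The label in MEFs was followed by differences of -0.17, -0.10, -0.15 and 0.09 in Neurod1, Nhlh2, Chgb and Dcx, none past the test. Dll1, Id1, Id2 and Id4 rose there by 2.25, 2.02, 2.29 and 2.43, and their difference from the P19 effect did not pass (limma adjusted p = 0.995, 0.932, 0.922 and 0.754). Dner rose by 7.29 in MEFs and 3.73 in P19 cells, and this difference of 3.56 passed (adjusted p = 3.34e-07). Genes at least 2-fold higher in all 3 comparisons numbered 13, namely Spsb4, Igfbp5, Cacna2d1, Megf10, Dll1, Id2, Id4, Irx3, Plxna2, Zbtb18, Hes6, Tnik and Igdcc4, which are named here after their values were seen. Of the 113 genes at least 2-fold lower with NeuroD2 in P19 cells, 7 were also lower in MEFs, which is 6.19% of the 113 and 1.62% of the 433 of MEFs (2.38% of all genes). Lgals3, a galectin, and Krt19 were lower with MyoD in P19 cells as well, and these 2 are 1.77% of the 113 and 7.41% of the 27 of MyoD (0.148% of all genes).

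**Figure D5:**
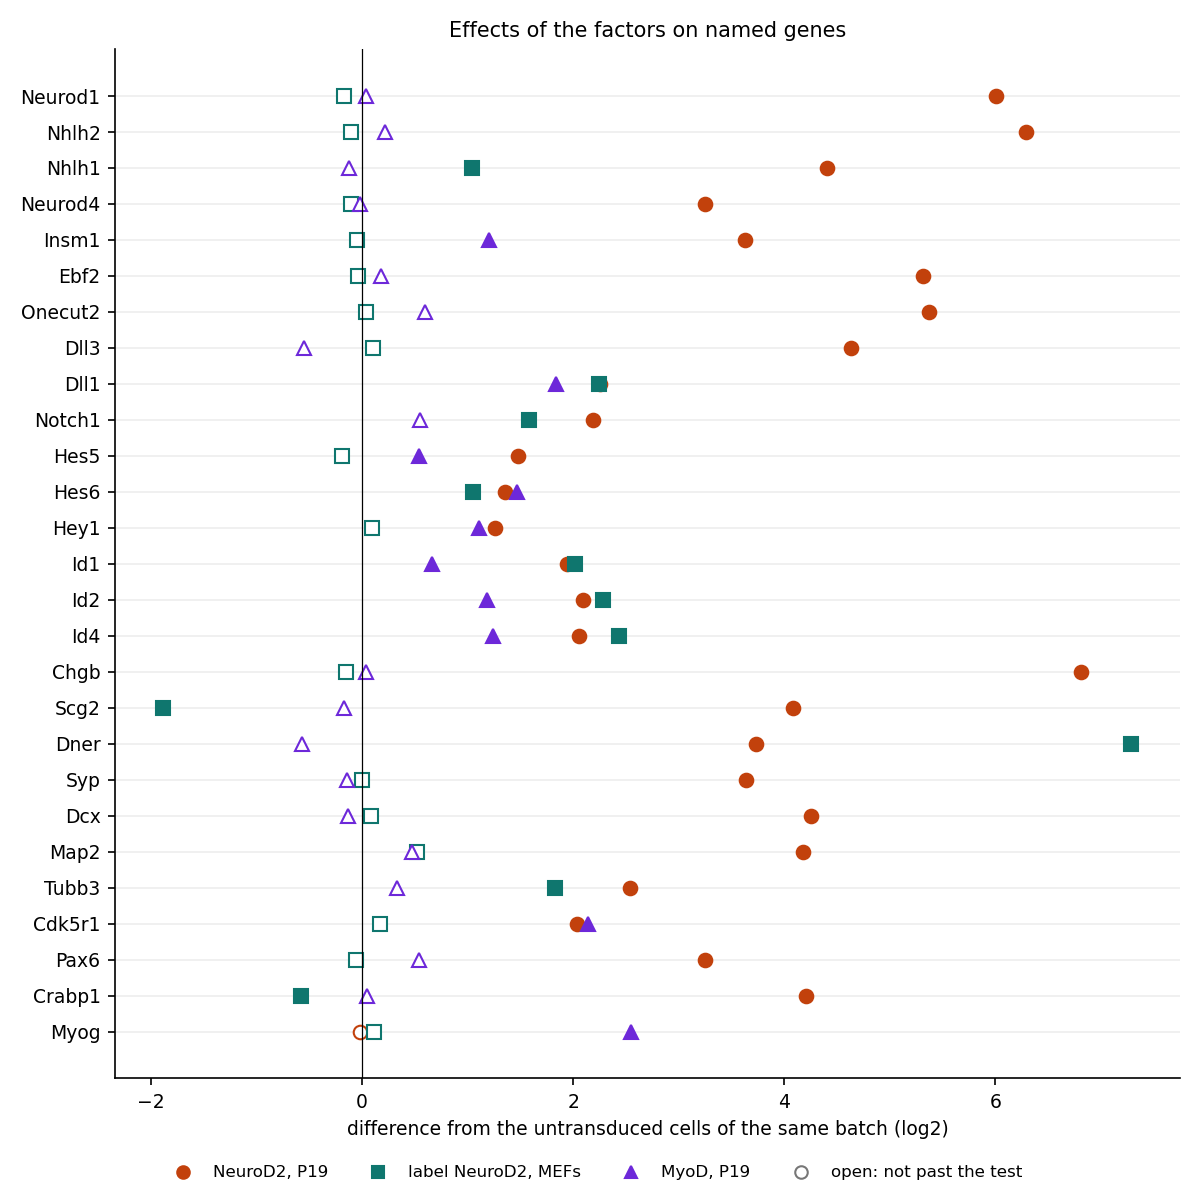
Difference from the untransduced cells of the same batch (log2, horizontal) for named genes under NeuroD2 in P19 cells (circles), the label NeuroD2 in MEFs (squares) and MyoD in P19 cells (triangles); open marks did not pass limma's test. Neurod1, Nhlh2, Chgb and Dcx are filled only for NeuroD2 in P19 cells, whereas Dll1, Hes6, Id1, Id2 and Id4 are filled for all 3.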

How the data were processed

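RNA of 24 samples was hybridised to Affymetrix mouse arrays, 1 array each, and the deposited values are log2 intensities per probe set in a value table of the authors. The labels do not name the normalization behind them, and the submitters' processing notes name limma alone. Of 45101 probe sets, 34945 carry a single gene symbol and gave 18193 genes, each read from its brightest probe set by mean over the series.

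All 24 arrays were fitted together with limma 3.58.1 in R 4.3.3, with a mean per group. No filter was set on low values. The limma fit was tested on simulated data with independent spread between arrays. No simulated array stood apart, so that test does not cover the effect of such arrays here. Arrays were grouped by title. Replicates sharing a number across the groups had deviations that correlated at 0.159, 0.0493 and 0.17, so they were not paired.

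The members, gene lists and tests were chosen with earlier results of these data known. Named were Neurod2 and the 4 markers, the 15 largest changes per direction (groups apart, a group mean over 7.03, the median value, no clone names), up to 4 called members per list with the largest change, and a fixed set. Further called members of a list are named after their values were seen. Promoters came from RefSeq by symbol. The alternatives left out single arrays or changed the scaling, the probe set rule, the filter, the fit or the replicate block. The remaining 6 arrays entered the shared spread only.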

Additional observations from a re-analysis of the deposited data

Results flagged for a closer look

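For 7 named genes the test of the difference between the effect in P19 cells and the effect under the same label in MEFs passed, and the gene was called in both cell types in opposite directions. Values are log2 differences from untransduced cells, and the difference is the MEF effect minus the P19 effect. Scg2, a granin, rose by 4.08 in P19 cells and fell by 1.88 in MEFs, a difference of -5.96. Crabp1, a retinoic acid-binding protein, rose by 4.20 in P19 cells and fell by 0.58 in MEFs, a difference of -4.78. Mbp, a myelin protein, rose by 1.17 in P19 cells and fell by 1.75 in MEFs, a difference of -2.93. Jun rose by 0.83 in P19 cells and fell by 1.70 in MEFs, a difference of -2.52, whereas Fos fell by 1.28 in P19 cells and rose by 2.66 in MEFs, a difference of 3.94. Eya1, a transcription cofactor of muscle and sensory organs, rose by 1.20 in P19 cells and fell by 1.19 in MEFs, a difference of -2.40. Hrh1, a histamine receptor, fell by 1.52 in P19 cells and rose by 1.42 in MEFs, a difference of 2.94. The P19 call of Eya1 ended under 7 of 18 alternatives (highest limma adjusted p = 0.262), that of Jun under 9, that of Fos under 4 and that of Mbp under 1. Batch and cell type cannot be told apart in these differences, and the MEF arrays showed no rise of Neurod2.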

How the results depend on the processing

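Of the 111 named genes that were called, 83 were called under every alternative run, up to 18 per gene, 28 lost the call under at least 1 and 0 changed direction; Egr2 and Mpzl2 lost it under 10. Of the 26 not called, 16 were called under at least 1 alternative. Of 125 further probe sets of 65 called genes, 79 were called the same way, 0 the other way and 46 were not called. With array weights, whose estimation stopped short of its tolerance, 2638 genes were higher and 3355 lower in P19 cells, 3721 and 3501 differed between MEFs and P19 cells, and 2622 and 3033 between NeuroD2 and MyoD. Fitting only the arrays compared gave 788 higher and 403 lower genes in P19 cells. Of these, 666 were among the 928 rises and 291 among the 589 falls called with all arrays. The same setting gave 1498 genes with a higher effect in MEFs, and 233 higher and 88 lower for NeuroD2 against MyoD. Repeated quantile normalization gave 1085 lower genes and 1358 with a higher effect in MEFs. Averaging replicates 2 and 3 of both groups, chosen after seeing the data, gave 646 higher and 244 lower genes, and 234 lower for NeuroD2 against MyoD.

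Leaving out single arrays gave 693 to 1992 higher and 330 to 2034 lower genes, 643 to 2285 with a higher and 862 to 2235 with a lower effect in MEFs, and 405 to 1173 higher and 303 to 1666 lower for NeuroD2 against MyoD. The highest of these counts came without P19 control replicate 2 of batch 1, except 1666, which came without replicate 3 of that group; without its replicate 1 the count was 1142. The lowest lower counts came without NeuroD2 replicate 2 (330, and 309 against MyoD) and without MyoD replicates 1 and 3 (303 and 314). With the replicate number as a block, 895 genes were higher and 500 lower, 761 and 974 differed between MEFs and P19 cells, and 518 and 438 between NeuroD2 and MyoD. Untransduced replicate 2 correlated best with NeuroD2 replicate 3 (0.118), not with its own number. E-box shares kept within their intervals when only changes of at least 2-fold were used. The 3 arrays per group limit the precision of all these values.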

Other observations

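Some genes outside the lists, chosen after their values were seen, belong to groups known from neurons. Actl6b, the neuronal subunit of the BAF chromatin remodelling complex, read 4.35, 4.49 and 4.35 in the controls and 6.54, 6.68 and 6.99 with NeuroD2 (2.34 ± 0.16, limma adjusted p = 1.2e-09). The groups lay apart, whereas Actl6a, its counterpart in dividing progenitors, differed by -0.13 (adjusted p = 0.883). Mir124-2hg, a host transcript of a neuronal microRNA, read 4.68, 4.53 and 4.56 against 6.47, 6.82 and 6.54 and rose by 2.02 (adjusted p = 2.4e-07), which does not measure the microRNA itself. Ptbp1, a splicing repressor that this microRNA is known to target, differed by -0.18 (adjusted p = 0.561). Ret, a receptor tyrosine kinase of sensory and autonomic neurons, rose by 2.03, Cartpt, a neuropeptide precursor, by 2.47, and Sstr2, a somatostatin receptor, by 2.47. Zfp57, a zinc-finger protein that maintains imprints, fell by 1.32.

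Of 22 measured Pcdhb genes, the clustered beta protocadherins of neuronal surfaces, 8 rose and 0 fell, with a median of 0.23. Over all genes 5.10% rose and 3.24% fell, and this family lies outside the gene lists. Without both replicates numbered 1 there were 8 rises, against 4.47% of all genes. Without P19 control replicate 2 of batch 1 there were 10, against 10.9% of all genes. These genes are close copies of each other, so their probe sets may share signal and the count is uncertain.

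In untransduced replicate 1 some genes, picked for their size of difference, read far below the other controls. Anxa1, an annexin, read 4.78 in it and 10.07 and 10.24 in replicates 2 and 3, and Acta2, smooth muscle actin, read 7.60 against 12.66 and 12.74. Over all genes, 502 were at least 2-fold lower in this array than in the mean of the others and 126 at least 2-fold higher. Among the higher were Dcx at 2.39, Fgf8 at 2.29 and Lefty2 at 2.05, as differences from that mean. The NeuroD2 arrays read 9.74, 8.20 and 8.18 for Anxa1, closer to replicates 2 and 3 than to replicate 1 in each case.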
